A study of Mus musculus with 12 samples.

Results

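The replication-dependent histone genes are the 58 genes among 18497 named genes of the table whose symbols begin with H2ac, H2bc, H3c or H4c followed by a number, or are H1f1, H1f2, H1f3, H1f4 or H1f5. Of these, 5 encode the linker histone H1, 13 encode H2A, 15 encode H2B, 12 encode H3 and 13 encode H4. The genes were chosen by symbol and not by their values. Pituitary glands were taken from adult male mice, 6 in each of 2 groups, all wild type and labelled as the F1 strain C57BL/6Jx129S1/SvlmJ. In the vehicle group the zygote had been injected with nuclease-free water. In the mimic group it had been injected with a locked-nucleic-acid mimic of the microRNA let-7f-5p at a dose the labels call stress-relevant, and both kinds of embryo were carried by CD1 recipient dams. The labels do not say which males shared a litter or a dam, so the p-values below measure only the spread between these 12 glands. The mimic was given to the zygote and the gland was taken from the adult, so the comparison asks whether the early exposure left a difference in adult pituitary RNA.

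Histones package DNA into nucleosomes, each built from H2A, H2B, H3 and H4, with H1 bound to the linker DNA. The replication-dependent genes are transcribed chiefly in S phase, when newly made DNA needs new histones, and most of their mRNAs end in a conserved stem-loop in place of a poly(A) tail. The stem-loop-binding protein SLBP holds that structure and the U7 small nuclear RNP directs the cut behind it. Some of these genes also give polyadenylated mRNAs in cells that have left the cell cycle. Because the libraries were made from rRNA-depleted total RNA, both kinds of end could be captured. Most endocrine cells of the adult pituitary are not dividing. In bulk tissue, fewer cells of a type and less RNA per cell cannot be told apart.

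The injected microRNA is shown first, with its seed (bases 2 to 8) in capitals, as RefSeq gives the mature mouse sequence for both of its genes (GRCm38.p6).

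mmu-let-7f-5p: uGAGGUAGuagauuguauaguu

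The heptamer that pairs with this seed, CTACCTC on the transcript strand, was found in a transcript of 6 of 55 histone genes (10.9%), against 21.9% of 21901 protein-coding genes of GENCODE M21. The histone transcripts are also shorter, with a median longest transcript of 572 bases against 2680. After the stop codon the heptamer was found in 1 histone gene, H4c4. A match of letters is a description and says nothing about binding.

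The stem-loops are shown because they are what sets these mRNAs apart from others. Of the 58 genes, 55 matched a RefSeq gene and a GENCODE M21 model; H2ac25, H2bc24 and H4c16 did not and are reported by name only. Of the 55, 45 lie on chromosome 13 and 10 on chromosome 3. A 16-base histone stem-loop stood 21 to 58 bases after the stop codon in 39 of the 55, and in 39 of the 46 models that carry at least 30 bases there (84.8%). It was found anywhere in a transcript for 51 of 21901 protein-coding genes (0.233%). The 39 genes shared 6 spellings, with the 6-base stem arms in capitals and the 4-base loop in lower case.

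23 genes of the H1, H2A, H2B and H3 classes: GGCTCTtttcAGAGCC

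6 genes of the H4 class: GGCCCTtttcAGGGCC

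5 genes of the H2B and H3 classes: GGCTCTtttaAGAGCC

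2 genes of the H4 class, H4c9 and H4c14: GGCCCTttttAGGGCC

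2 genes of the H4 class, H4c2 and H4c11: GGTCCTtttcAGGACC

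1 gene of the H2A class, H2ac20: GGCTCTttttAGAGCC

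The stem thus followed the class. All 10 H4 genes with a stem-loop had a stem not found in the other classes, in 2 spellings, and the 29 genes of the other classes shared a single stem and differed in the loop. H3c6 and H3c7, the most abundant H3 genes, both carried the loop with the final a, and H1f4, H2ac19 and H2bc6, which lead their classes, carried the commonest form.

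The bases before the start site are shown for H1f4, H2ac19 and H3c6, which lead their classes, and for H4c4, which does not. Each run is the 100 bases upstream of the RefSeq start on GRCm38.p6, read on the gene's own strand, with the letters CCAAT or TATAAA, or either read on the other strand, in capitals.

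H1f4, chr13:23622559-23622658, minus strand: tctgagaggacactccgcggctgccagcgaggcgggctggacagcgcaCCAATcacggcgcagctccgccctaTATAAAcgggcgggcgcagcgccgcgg

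H2ac19, chr3:96240375-96240474, minus strand: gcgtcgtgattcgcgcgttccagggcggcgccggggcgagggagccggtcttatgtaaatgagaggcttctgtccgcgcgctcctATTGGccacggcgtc

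H3c6, chr13:23562386-23562485, minus strand: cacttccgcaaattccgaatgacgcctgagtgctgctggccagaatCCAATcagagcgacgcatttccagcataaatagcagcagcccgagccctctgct

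H4c4, chr13:23581468-23581567, plus strand: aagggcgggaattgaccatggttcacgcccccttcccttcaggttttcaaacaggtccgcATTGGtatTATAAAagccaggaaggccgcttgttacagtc

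Over the 250 bases upstream, searched on both strands in the 49 histone genes with a single listed promoter, CCAAT was found in 39 (79.6%), against 33.8% of 32851 promoters in the table. At least 2 copies stood in 32 of the 49 (65.3%), against 10.1%. TATAAA was found in 25 (51%), against 12.4%, and both motifs in 20 (40.8%), against 4.4%. The last letter of CCAAT can also be the first of TATAAA, and each match was counted on its own. The classes differed. CCAAT was found in all 5 H1, all 12 H2A and all 11 H2B promoters, in 8 of 10 H3 promoters and in 3 of 11 H4 promoters. H4c4, shown above, held both CCAAT and TATAAA, while H4c8, the most abundant H4 gene, held neither in these 250 bases. The heptamer AAACACA, known from H1 promoters, was found in 4 of 5 H1 promoters, against 6.25% of all promoters, in 1 of 12 H2A and 1 of 11 H2B promoters, and in no H3 or H4 promoter of 10 and 11.

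The libraries held 26378300 to 37061100 recovered reads, which are estimated counts. The values below are the authors' normalised read counts, that is, estimated counts divided by a size factor of each library. Of 10 pituitary markers, 9 were in the table under the symbols used; Gh, which encodes growth hormone, ranged from 2457500 to 4118190 and Prl, which encodes prolactin, from 323446 to 640604, and both were present in every gland. The proopiomelanocortin gene Pomc ranged from 45286 to 606984, and summed posterior-lobe markers from 2301 to 24606. Whether the share of the intermediate and posterior lobes or the RNA per cell differed between glands cannot be told apart. Vehicle 3 stood apart in histone level, as did mimic 2 within its group, and group differences and slopes are given below also without them where they moved. Ratios of summed levels are given without vehicle 3 only.

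The histone genes together took a small share of the RNA. Their sum was 15701, 16832 and 22221 normalised counts at the lowest, median and highest vehicle gland, and 15054, 16226 and 18639.8 in the mimic glands. This was 0.0492% to 0.0704% of all normalised counts in a gland. The groups overlapped, with means of 17958 ± 2565 and 16441 ± 1236 (SD, n = 6), a ratio of 0.916. Vehicle 3 was the highest of all 12, and without it the ratio was 0.961. By class the ratio ran from 0.874 for H3 to 0.940 for H1, and without vehicle 3 from 0.954 for H4 to 0.970 for H2A and H1. The ratios without vehicle 3 keep mimic 2, the highest mimic gland. Vehicle 3 was 1.30 times the mean of the other vehicle glands, and mimic 2 was 1.16 times that of the other mimic glands. By class mimic 2 ran from 1.05 times for H2B to 1.30 times for H3. Leaving out mimic 2 as well would lower each ratio, and those values were not computed.

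**Figure D1:**
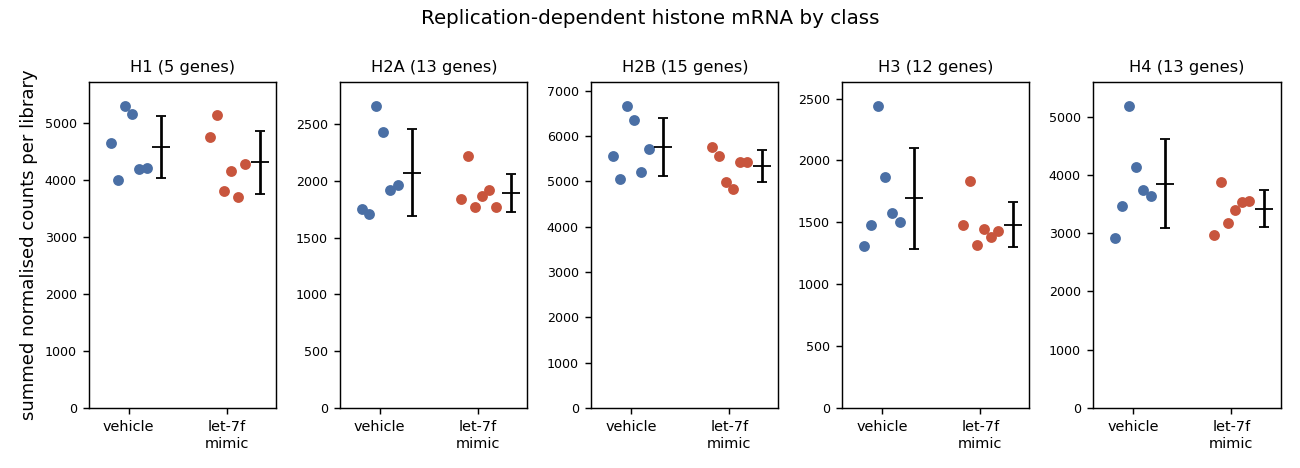
Summed normalised counts per library for the 5 histone classes, with vehicle glands in blue and let-7f mimic glands in red; each point is 1 gland and the black mark is the mean with its SD (n = 6). The groups overlap in every class, and the highest vehicle point in each panel is vehicle 3, at 5292 for H1, 2659 for H2A, 6657 for H2B, 2437 for H3 and 5176 for H4.

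The H1 genes, which encode the linker histones, had a summed level of 4584 ± 544 for vehicle and 4310.0 ± 555 for mimic (normalised counts, SD, n = 6). H1f4 alone gave 49.6% of the class, and H1f4 and H1f2 together 87.0%. H1f4 was 1943, 2285 and 2614 at the lowest, median and highest vehicle gland and 1829, 2018 and 2555 in mimic glands. H1f2 was 1516, 1671 and 2003 in vehicle and 1358, 1595 and 1924 in mimic glands. Both genes varied little between glands, and the groups overlapped almost wholly. The other 3 H1 genes were far less abundant, with H1f3 at 292 to 493, H1f1 at 92.9 to 212 and H1f5 lowest on average at 93.1.

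The H2A genes, whose protein pairs with H2B, summed to 2074 ± 385 for vehicle and 1899 ± 168 for mimic (SD, n = 6). H2ac19 was the most abundant, at 588, 715 and 901 in vehicle glands and 571, 649 and 735 in mimic glands. H2ac25 followed, at 456, 547 and 649 in vehicle and 530.2, 549 and 665 in mimic glands. These gave 62.6% of the class. H2ac18 and H2ac19 have the same coding sequence, and their transcripts held 10.3% and 0% of 31-base stretches found in no other gene, so how reads were split between them is an estimate. Their separate levels are therefore uncertain, and H2ac18 ranged from 86.9 to 388 where H2ac19 ranged from 571 to 901.

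The H2B genes summed to 5757 ± 637 for vehicle and 5334 ± 352 for mimic (SD, n = 6), the highest sum of the 5 classes. H2bc6 gave 42.5% of it, at 2149.7, 2413 and 2867 in vehicle and 2007, 2222 and 2518 in mimic glands. H2bc4 was 1082, 1231 and 1506 in vehicle and 1042, 1237 and 1384 in mimic glands. H2bc21, known to give polyadenylated mRNA in differentiated cells, was 807, 952 and 983 in vehicle and 754, 852 and 948 in mimic glands. These genes were steady, with an SD over the 12 glands of 0.15, 0.17 and 0.13 on the log2(normalised count + 1) scale.

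The H3 genes summed to 1694 ± 407 for vehicle and 1481 ± 183 for mimic (SD, n = 6). The class was spread over more genes, and H3c6 and H3c7 together gave 41.8% of it. H3c6 was 261, 352 and 537 in vehicle and 298, 324 and 466 in mimic glands. H3c7 was 248, 316 and 492 in vehicle and 223, 278 and 349 in mimic glands. The upper end belonged to vehicle 3 and mimic 2 for both genes.

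The H4 genes summed to 3848 ± 761 for vehicle and 3416 ± 318 for mimic (SD, n = 6). H4c8 and H4c4 together gave 35.9% of the class. H4c8 was 619, 816 and 1226 in vehicle and 629, 736 and 963 in mimic glands. H4c4 was 366, 489.9 and 776 in vehicle and 384, 422 and 552 in mimic glands. H4c6 was the least abundant H4 gene, at 6.45 to 17.2, and was the 1 histone gene of the 58 below the level required for testing.

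Ranked by level per length, the order of the classes changed with the length used. Per kilobase of coding sequence, the vehicle means of the 55 matched genes were 14979 ± 1713 for H2B, 11006 ± 2354 for H4, 7029 ± 833 for H1, 3979 ± 982 for H3 and 3879 ± 845 for H2A (SD, n = 6). Sums per length, here and below, leave out H2ac25, H2bc24 and H4c16, which have no matched length. H2ac25 was the most abundant H2A gene after H2ac19, at a vehicle mean of 551 normalised counts, so the H2A level is understated. Within a gland H3 was above H2A in 7 of 12 on these sums, by at most 519. The matched H2A coding sequences are 390 to 393 bases long. At such a length H2ac25, at 456 to 665 normalised counts, would place H2A above H3 in every gland. On the sums as given, each pair other than H3 and H2A had the same order in all 12 glands. Per kilobase of the longest annotated transcript, H4 came first at 5326 ± 1253, then H2B at 4179 ± 574, H2A at 2748 ± 622, H1 at 2634 ± 313 and H3 at 2187 ± 594. On that scale H4 was above H2B in 10 of 12 glands, H2A above H1 in 7, H1 above H3 in 11 and H2A above H3 in all 12.

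Much of the H1 and H2B signal came from genes with a long annotated stretch after the stop codon. GENCODE M21 gives at least 300 bases there for 19 of the 55 genes and fewer or none for 36. Of those 19, 16 also hold the stem-loop. The long group gave 94.97% of the matched H1 counts, 86.8% of H2B, 65.8% of H3, 52.1% of H4 and 8.12% of H2A. With the 36 short genes alone, the order per kilobase of coding sequence was H4 at 5284 ± 1327, H2A at 3573 ± 837, H2B at 2024 ± 401, H3 at 1444 ± 489 and H1 at 338 ± 96.2 (vehicle means, SD, n = 6). The gene-level counts do not show which end of a transcript the reads came from.

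No histone gene passed the test between mimic and vehicle glands. With limma on log2(normalised count + 1) and Benjamini-Hochberg adjustment over 18390 genes, 0 of 57 tested histone genes passed an adjusted p of 0.05, and the share over all genes was 0%. The smallest adjusted p of a histone gene was 0.976, and of any gene 0.822. At an unadjusted p under 0.05 there were 2 histone genes (3.51%), against 4.78% of all genes. In 0 of 57 the 2 groups did not overlap, against 0.12% of all genes. With edgeR's quasi-likelihood test on the recovered reads 0 genes were called, with 868 at an unadjusted p under 0.05. DESeq2 called 10 genes, none of them a histone gene.

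Most log2 fold changes were negative and small. The log2 fold change was negative for 45 of 57 histone genes (78.9%), where 50.2% of all genes were negative. The median was -0.13 over the histone genes and -0.00053 over all genes, and the median standard error of a single histone gene was 0.185. The share depended in part on vehicle 3, since without it 36 of 57 were negative with a median of -0.08. Without vehicle 3 and mimic 2, the gland with the highest histone level in each group, 39 were negative and the median was -0.09. The class medians were -0.02 for H1 (3 of 5 negative), -0.14 for H2A (11 of 13), -0.10 for H2B (11 of 15), -0.17 for H3 (9 of 12) and -0.19 for H4 (11 of 12). Genes of 1 class share sequence and libraries and are not independent.

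**Figure D2:**
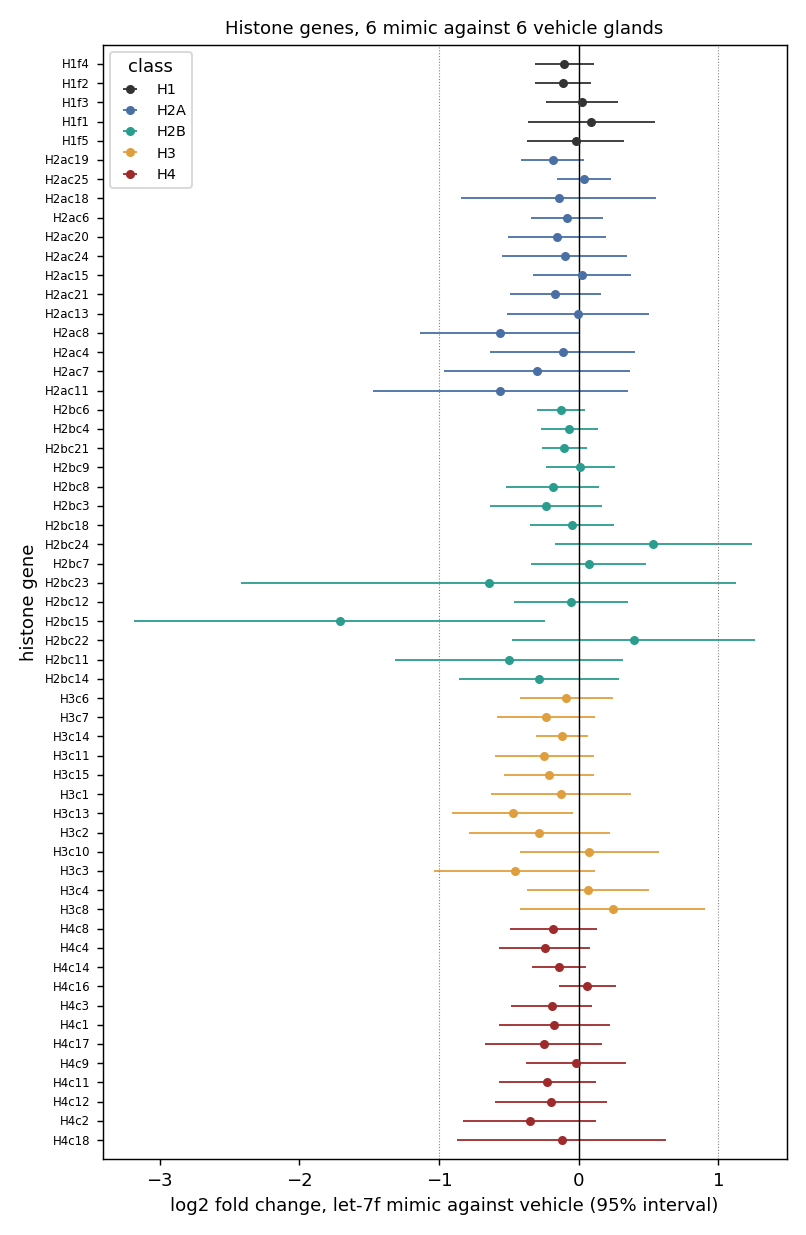
The log2 fold change of each of 57 histone genes, let-7f mimic against vehicle (6 glands each), with its 95% interval from limma; genes are grouped by class and ordered by mean level, and dotted lines mark a 2-fold change. Of the 57 points 45 lie left of 0, from -1.71 for H2bc15 to 0.53 for H2bc24, and 49 intervals stay within 2-fold.

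The data limit how large a change could have been missed. The 95% interval of the fold change lay within 2-fold either way for 49 of 57 histone genes (86.0%), against 93.6% of all genes. It lay within 1.5-fold for 35. The 8 genes whose interval reached beyond 2-fold were H2bc15, H2bc23, H2bc24, H2bc22, H2bc11, H2ac11, H2ac8 and H3c3.

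For the leading genes the intervals were narrow. H2bc6 differed by -0.13 (SE 0.08, 95% interval -0.30 to 0.04), with 5 of 6 mimic glands below the vehicle mean (adjusted p = 0.976 by limma). H1f4 differed by -0.10 (SE 0.10) and H1f2 by -0.11 (SE 0.09). H2ac19 differed by -0.19 (SE 0.10, unadjusted p = 0.0950) and H2ac25 by 0.04 (SE 0.09). H2bc4 differed by -0.07 (SE 0.10). H3c6 differed by -0.09 (SE 0.16) and H3c7 by -0.23 (SE 0.16). H4c8 differed by -0.18 (SE 0.15) and H4c4 by -0.24 (SE 0.15, 95% interval -0.57 to 0.08). Several of these values were smaller without vehicle 3, at -0.08 for H4c8, -0.13 for H4c4, -0.12 for H3c7, -0.02 for H2bc4, -0.08 for H2bc6, -0.12 for H2ac19 and -0.07 for H1f4, and H3c6 turned to 0.03. Without mimic 2 they moved the other way, to -0.25 for H4c8, -0.31 for H4c4, -0.30 for H3c7, -0.18 for H3c6, -0.16 for H1f4 and -0.17 for H1f2, and H2ac25 turned to -0.0066. Without both, H4c8 was at -0.15 and H4c4 at -0.20. H4c4 holds the let-7 heptamer after its stop codon, and the median over the H4 class was -0.19. Among genes with the heptamer elsewhere in a transcript, H3c11 differed by -0.25, H3c6 by -0.09, H3c10 and H3c4 by 0.07 and H3c8 by 0.24. Whether the heptamer bears on these values was not tested.

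The smallest unadjusted p-values belonged to low-level genes. H2bc15, an H2B gene, was 11.1, 26.8 and 35.9 in vehicle glands and 0, 7.61 and 28.2 in mimic glands, where mimic 1 and mimic 2 lay within the vehicle range and the other 4 below it. Its log2 fold change was -1.71 (SE 0.69, unadjusted p = 0.0259, adjusted p = 0.976 by limma), and it moved from -1.13 to -2.10 as single glands were left out, -1.13 without mimic 5, which was listed at 0. Only 12.0% of its 31-base stretches are found in no other gene, so its counts are uncertain. H3c13, an H3 gene, was 74.5, 87.7 and 136 in vehicle and 47.9, 61.1 and 116 in mimic glands, with 5 of 6 mimic glands below the vehicle mean. It differed by -0.47 (SE 0.20, unadjusted p = 0.0350), and by -0.36 without vehicle 3 and -0.63 without mimic 2. H2ac8, an H2A gene, was 22.9, 31.6 and 56.2 in vehicle and 13.8, 22.9 and 35.2 in mimic glands. It differed by -0.57 (SE 0.27, unadjusted p = 0.0513), and by -0.41 without vehicle 3 and -0.70 without mimic 2. The groups overlapped for all 3 genes.

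Single glands stood further apart than the groups did. In vehicle 3, 53 of 57 histone genes were above their own mean of 12 glands and 39 were the highest of all 12, against 11.5% of all genes. The median ratio of vehicle 3 to the mean of the other vehicle glands was 1.54 over the histone genes and 0.990 over all genes. On the log2 scale the median deviation from the gene's own mean was 0.62 in vehicle 3, 0.22 in vehicle 4 and 0.21 in mimic 2, and lowest in mimic 3 at -0.21. In mimic 2, 29 of 57 histone genes were the highest of the mimic glands, against 17.2% of all genes. The higher level in vehicle 3 was found in every class, with median deviations of 0.48 for H1, 0.62 for H2A, 0.42 for H2B, 0.69 for H3 and 0.67 for H4. H2bc24 went the other way, at 16.5 in vehicle 3 against 24.5 to 74.5 in the other vehicle glands.

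**Figure D3:**
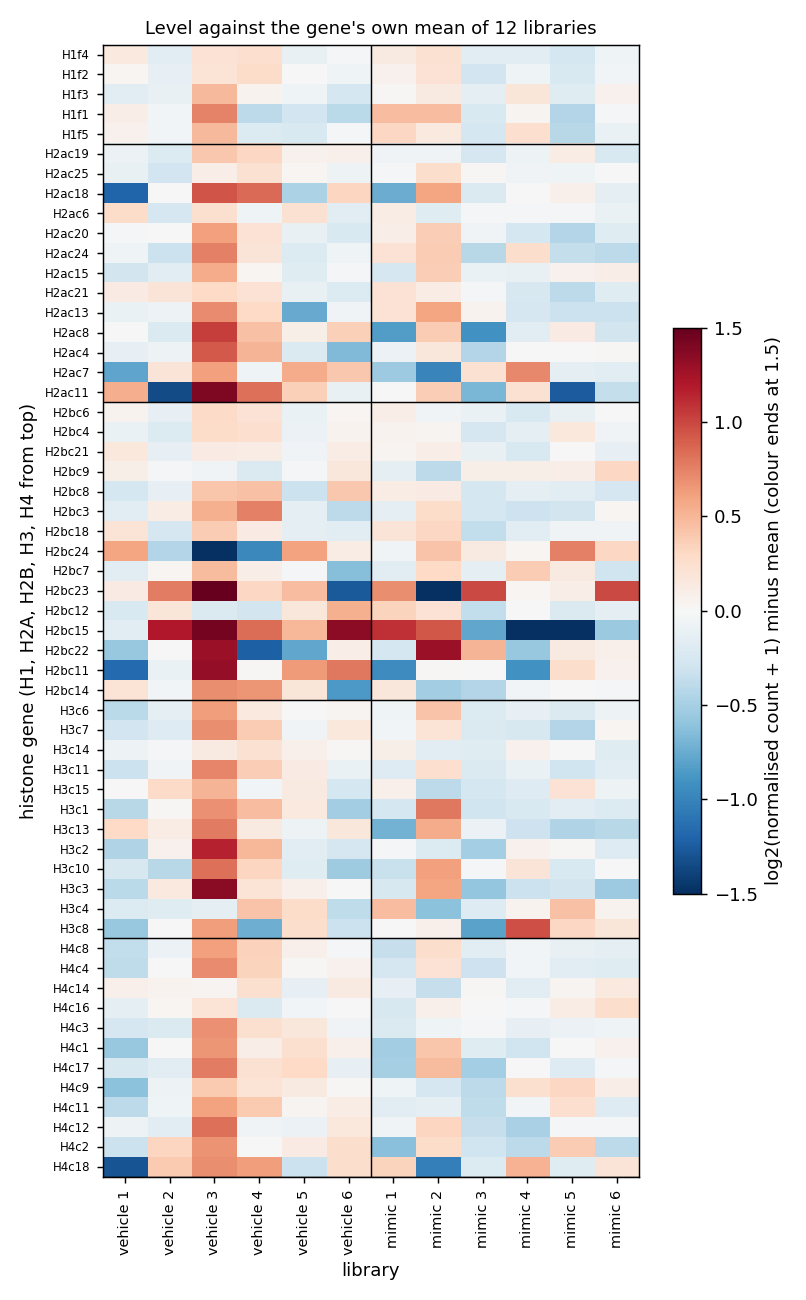
Level of 57 histone genes (rows, by class from H1 at the top to H4 and by mean level within a class) in 12 libraries (columns), as log2(normalised count + 1) minus the gene's mean; red is above and blue below the mean. The vehicle 3 column is red for 53 of 57 genes, the vehicle 4 and mimic 2 columns are red for 44 and 41, and the mimic 3 column for 9.

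Genes with a short annotated end stood higher in vehicle 3 and mimic 2 than genes with a long one, a difference that was not tested. In vehicle 4 they did not, with a median log2 deviation of 0.22 for the short genes, 27 of 35 being above their mean, and 0.24 for the long genes, 16 of 19 being above. The median ratio of vehicle 3 to the other vehicle glands was 1.61 over 35 short genes, from 0.793 to 3.47, and 1.22 over 19 long genes, from 0.897 to 2.53. Vehicle 3 was the highest vehicle gland for 32 of the 35 and for 11 of the 19. In mimic 2, the median deviation was 0.31 for the short genes, 30 of 35 being above their mean, and -0.06 for the long genes, 8 of 19 being above. The sum over short genes was 6613 in vehicle 3, against 3555 to 5208 in the other vehicle glands, and 5149 in mimic 2, against 3570.2 to 3963.5 in the other mimic glands. The sum over long genes was 14512 in vehicle 3, against 10762 to 13705 in the other vehicle glands, and 12317 in mimic 2, also the highest of its group, against 10449.5 to 12071. The division at 300 bases was chosen after seeing the data, and the ratios of the 2 groups of genes overlap.

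Other gene lists stood apart in the same glands. The mean log2 deviation of 6 erythroid genes was 1.19 in vehicle 3 and 0.76 in vehicle 4, and their sum ranged from 10852 to 49536 in vehicle and 14787 to 26664 in mimic glands. That of 11 posterior-lobe markers was 1.34 in vehicle 3 but -0.86 in vehicle 4. Cytosolic ribosomal protein genes, 75 in number, were at 0.26 and 0.23 in vehicle 3 and 4. Genes of G2 phase and mitosis were at 0.33 in vehicle 3, genes of S phase at 0.11 and stem and progenitor markers at 0.38. Their part in the histone level was not tested. In mimic 2 the same lists were at 0.18 for erythroid, 0.28 for posterior lobe, 0.03 for ribosomal protein, -0.12 for G2 phase and mitosis and -0.02 for S phase genes. Stem and progenitor markers were at 0.28 there, the highest of the mimic glands, which otherwise lay between -0.15 and 0.04.

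The proliferation markers were compared next. Mki67, which encodes the nuclear antigen Ki-67 of cycling cells, was 829, 766, 906, 713, 721 and 629.6 normalised counts in vehicle 1 to 6 and 918, 1101, 922, 1035, 884 and 875 in mimic 1 to 6. All 6 mimic glands lay above the vehicle mean, though vehicle 3 lay above 2 of them. The log2 fold change was 0.33 (SE 0.09, unadjusted p = 0.00253, adjusted p = 0.976 by limma), so Mki67 did not pass the threshold. Top2a, which encodes the DNA topoisomerase of dividing cells, was 549, 522, 611, 512, 521 and 355 in vehicle and 699.5, 453, 487, 663, 461 and 556 in mimic glands. Its groups overlapped, with a log2 fold change of 0.11 (SE 0.14, unadjusted p = 0.445), which was 0.0088 without vehicle 6. The signs of both were thus opposite to the median histone gene.

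Within groups, many histone genes had positive slopes on Mki67, but no slope passed the test. The slope is the log2 change of a gene per log2 unit of Mki67 in a limma fit with the group as a term. Of 57 histone genes 0 passed an adjusted p of 0.05, and 1 gene of 18389 did (0.00544%), the sulfonylurea receptor gene Abcc8. At an unadjusted p under 0.05, 12 histone genes were positive, against 2.93% of all genes, and 0 were negative, against 3.12%. In all, 46 of 57 slopes were positive with a median of 0.73, against 0.003 for all genes. The smallest p-values were those of H1f1 with a slope of 1.96 (SE 0.51), H2bc7 with 1.59 (SE 0.52), H3c10 with 1.93 (SE 0.63) and H3c13 with 1.60 (SE 0.56), each at an adjusted p of 0.791. The short genes had a median slope of 1.11 and 11 of 35 at an unadjusted p under 0.05, against 0.12 and 1 of 19 for the long genes. This is not a separate observation. The division was chosen after seeing the data, and vehicle 3 and mimic 2 have the highest Mki67 of their groups.

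These slopes rested on few glands. Without vehicle 3 the median slope was 0.13, with 33 of 57 slopes positive. At an unadjusted p under 0.05, 2 histone genes were then positive and 1 negative. Without mimic 2 the median slope was 0.48, with 44 of 57 positive, 5 of them at an unadjusted p under 0.05. Without both it was -0.27, with 22 of 57 slopes positive, 0 positive at an unadjusted p under 0.05 and 2 negative. Without the glands farthest from the median Mki67 level, vehicle 6 and mimic 2, it was 0.51. There 50 of 57 slopes were positive, 4 of them at an unadjusted p under 0.05. With the group left out of the fit it was 0.003. All genes of a gland share its library and size factor.

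**Figure D4:**
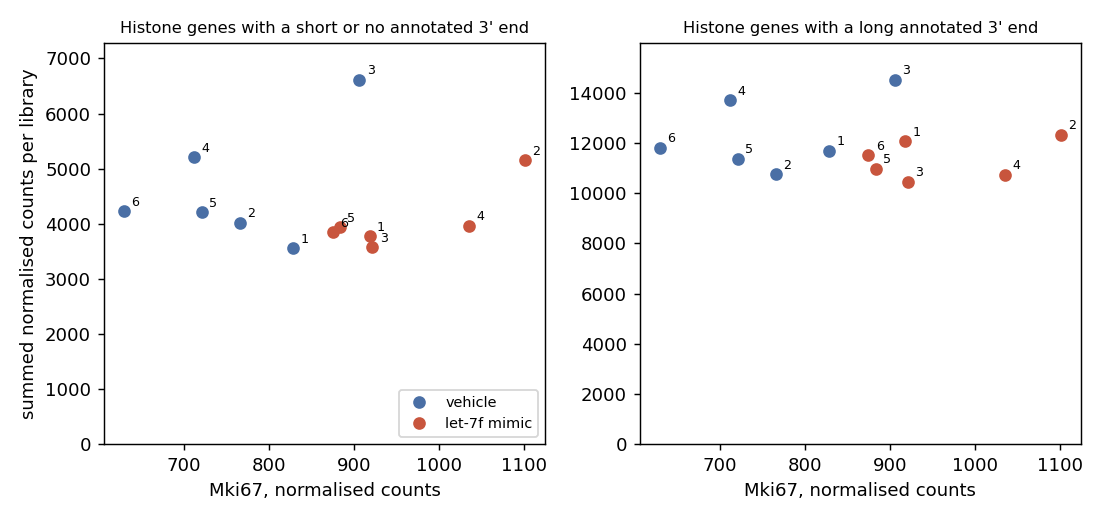
Summed normalised counts of the 36 histone genes with a short or no annotated 3' end (left) and the 19 with a long one (right) against the normalised count of Mki67, 1 point per gland labelled with its replicate number, vehicle in blue and let-7f mimic in red. Vehicle 3 at 6613 and mimic 2 at 5149 are the highest short-gene sums of their groups and have the highest Mki67 of their groups, 906 and 1101.

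On Top2a the histone slopes were smaller. Of 57 histone genes 0 passed an adjusted p of 0.05, as did 0% of 18389 genes. At an unadjusted p under 0.05, 2 histone genes were positive, against 3.1% of all genes, and 0 negative, against 3.11%. The median slope was 0.16, with 38 of 57 positive. Without vehicle 3 it was -0.06, with 1 positive and 4 negative at an unadjusted p under 0.05. Without mimic 2 it was 0.28, with 43 of 57 positive, 7 of them at an unadjusted p under 0.05. Without both it was 0.04, with 31 positive. The 2 were H2bc14 with 1.30 (SE 0.44) and H2bc23 with 3.48 (SE 1.47), and H2bc23 was listed at 0 in mimic 2. By contrast 19 of 21 other genes of G2 phase and mitosis had a positive slope on Top2a, with a median of 0.62 and 7 at an unadjusted p under 0.05. On Mki67, 17 of 21 such genes were positive with a median of 0.80, a set that holds Top2a in place of Mki67. Of 24 S phase genes, 18 were positive on Mki67 with a median of 0.21. The difference between the histone and the mitotic genes was not tested.

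The machinery that makes and handles histone mRNA was measured in the same fit, and none of it passed the test in either direction. Of 18 genes for histone mRNA processing and decay, 9 had a positive and 9 a negative log2 fold change, with a median of -0.0043. Ncbp2, a subunit of the nuclear cap-binding complex, was 1351 ± 178 in vehicle and 1535 ± 171 in mimic glands, and Upf1, a helicase of mRNA decay, 1773 ± 170 and 1631 ± 158 (SD, n = 6). Slbp, which encodes the stem-loop-binding protein, was 1189 ± 121 and 1148 ± 87.0. Of 11 genes for histone transcription, 6 were positive and 5 negative, with E2f1, an activator of S phase genes, at 111 ± 6.21 and 128 ± 16.3 and the kinase gene Cdk2 at 218 ± 20.9 and 236 ± 18.3. Of 18 chaperone genes, 9 were positive and 9 negative, with Hjurp, the chaperone of the centromeric H3 variant, at 4257 ± 454 and 4534 ± 288 and the H3.3 chaperone gene Daxx at 902 ± 148 and 816 ± 167.

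Histone genes outside the set of 58 also did not pass the test. Of 11 listed genes for histone variants and replication-independent histones, 3 were positive and 8 negative, with a median log2 fold change of -0.04. H2ax, whose protein marks DNA breaks, was 194 ± 10.0 in vehicle and 178 ± 19.5 in mimic glands, and H1f0, the linker histone of resting cells, 3962 ± 417 and 3679 ± 267 (SD, n = 6). H1f0 was thus higher in counts than any replication-dependent histone gene, though counts are not levels per length. Of 4 replication-dependent genes known to give polyadenylated mRNA, all 4 were negative, with a median of -0.09, H2bc21 at -0.10 (SE 0.07) and H1f2 at -0.11 (SE 0.09). In vehicle 3 the list of variant and replication-independent histone genes was at a mean log2 deviation of 0.17 and the processing list at -0.06.

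The cell-cycle and cell-type lists gave 0 passing genes each, and their values stand beside the histone result without a test of their part in it. Of 24 S phase genes 17 were positive (median 0.05), with Rrm1, a subunit of ribonucleotide reductase, at 2578 ± 163 and 2752 ± 137 and the DNA ligase gene Lig1 at 293 ± 57.7 and 329 ± 44.6. Of 22 genes of G2 phase and mitosis 15 were positive (median 0.10), with the mitotic kinase gene Plk1 at 47.7 ± 20.7 and 34.7 ± 8.83. All 11 posterior-lobe markers were positive (median 0.38), with Mt3 at 255 ± 55.5 and 316 ± 47.9 and Scn7a at a log2 fold change of 1.94 (SE 1.06). All 5 intermediate-lobe markers were positive (median 0.77), with Tbx19 at 0.49 (SE 0.19) and Pcsk2 at 0.77 (SE 0.34). All 6 erythroid genes were negative (median -0.16), with Slc4a1 at -0.66 (SE 0.79) and Hbb-bs at -0.20 (SE 0.30). Slc4a1 ran from -1.20 without vehicle 6 to -0.23 without vehicle 4, and Hbb-bs turned to 0.04 without vehicle 3. All 75 ribosomal protein genes were negative (median -0.12), with Rps10 at -0.15 (SE 0.07). Of 11 lymphocyte and macrophage genes 7 were positive (median 0.07), with Ms4a1 at 0.41 (SE 0.20) and Cd79a at -0.35 (SE 0.21), and of 7 stem and progenitor genes 4 were positive (median 0.06), with Aldh1a2 at -0.20 (SE 0.08) and Cxadr at -0.25 (SE 0.13).

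How far single histone genes can be told apart differed between the classes. The median share of 31-base stretches found in no other gene was 96.1% for H1, 51.0% for H4, 42.6% for H2B, 37.0% for H3 and 30.9% for H2A. Under 20% were found for 14 genes, and none for H2ac19 and H3c14. The median SD over the 12 glands on the log2 scale was 0.40 for the 14 tested genes under 20%, 0.41 for 19 genes from 20% to 50% and 0.26 for 21 genes at 50% or above, whose median level was also higher, at 356 against 78.8 and 43.2. The widest spreads were those of H2bc23 (1.64) and H2bc15 (1.59), each listed at 0 in 1 gland. H4c17 and H4c18 also share a coding sequence, and stood at 219 ± 62.9 and 27.9 ± 11.7 in vehicle glands (SD, n = 6).

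**Figure D5:**
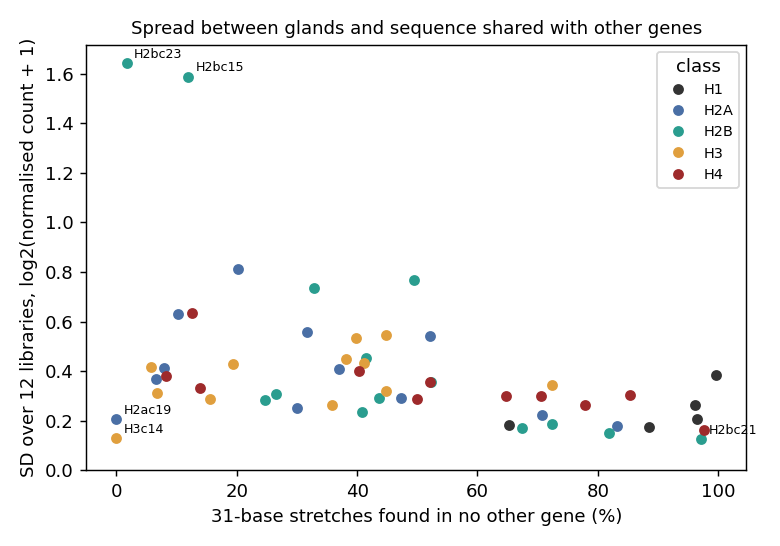
SD over 12 libraries of log2(normalised count + 1) against the percent of a gene's 31-base stretches that occur in no other gene, 1 point per histone gene (54 tested genes with a model), coloured by class. H2bc23 and H2bc15, at 1.74% and 12.0%, have the largest SD, 1.64 and 1.59, while H2ac19 and H3c14, at 0%, have an SD of 0.21 and 0.13.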

How the data were processed

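RNA was measured in 12 adult male pituitary glands, 6 per group. Per the submitters' processing notes, the tools were Trimmomatic 0.39, kallisto 0.50.1, FastQC 0.12.1, MultiQC 1.28 and DESeq2 1.48.2, with the build GRCm39; their settings are not given in the sources used here. What the authors deposited is 1 table of signal, that is, normalised read counts for each gene. In each library every value was a whole multiple of 1 step within 0.001 reads. Whole counts (26378300 to 37061100 per library, size factors 0.817 to 1.17) were therefore recovered for 100% of values. They are called recovered reads here, though reads shared between genes were divided by estimate. For mimic 3 and 5 the size factor lies so near 1 that steps are harder to tell from rounding, and the recovered reads enter only the alternatives. A row without a gene name (0.0359% to 0.0567%) was left out. The closest libraries differed by a chi-square of 19.3 per degree of freedom, far above sampling noise.

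Genes that reached 10 in 6 or more libraries (18390) were tested with limma 3.58.1 (trend) on log2(value + 1) in R 4.3.3, two-sided, with Benjamini-Hochberg adjustment over all of them and a threshold of 0.05. Fold changes are on that scale, where the added 1 shrinks those of low genes. A value of 0 in a library can instead enlarge them, as for H2bc15, whose mimic mean was 46.4% of its vehicle mean. Slopes on Mki67 or Top2a used the same fit with the group as a term. Alternatives were edgeR 4.0.16 and DESeq2 1.42.0 on the recovered reads, other pseudocounts (0.5 and 5), filters (none and 50), TMM rescaling, library weights, a replicate block and leaving out libraries. The fits were tested on simulated data. Intervals cover the spread between libraries only.

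Gene models are from GENCODE M21 and RefSeq (GRCm38.p6) and were joined by symbol and gene ID, since the authors' build differs. The lowest, median and highest value per group (for Mki67 and Top2a each library's value) are given for the 2 most abundant genes of each class, and the 4 of smallest p, and from each other list the 2 genes of smallest p are named, except 1 that is not reported here. Other genes, such as H2bc21, H2bc24, H4c6, Slbp and those of small slope p, were named after their values were seen. The members and lists were chosen with earlier results of these data known. Of a list of 11 noncoding RNAs, some of them short or non-polyadenylated, none was in the table, so their capture could not be checked.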

Additional observations from a re-analysis of the deposited data

Results flagged for a closer look

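In 16 of 130 sets of 6 glands examined (each histone gene, class sum or marker in each group), the gap between 1 gland and the rest, divided by the range of its group, exceeded the 95% critical value of Dixon's test; chance gives about 1 in 20, or 6.5. That rate holds for normally distributed values, and the gaps were taken on normalised counts and not on the log2 scale. The count scale stretches high values, so it favours high gaps, and 6.5 is only a guide. All 16 were high, 8 of them in vehicle 3 and 7 in mimic 2. These glands had the highest histone sums and the highest Mki67 of their groups (906 and 1101 normalised counts), and the sets share libraries.

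In vehicle 3 the value and the next highest vehicle value, in normalised counts, were 212 and 135 for H1f1, 493 and 366 for H1f3, and 129 and 96.2 for H1f5, all H1 genes. They were 81.4 and 56.3 for the H2A gene H2ac15 and 39.7 and 16.8 for the H2B gene H2bc22. They were 136 and 97.1 for H3c13, 165 and 73.5 for H3c3, and 131 and 81.8 for H4c12.

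In mimic 2 the value and the next highest mimic value were 665 and 563 for H2ac25, 157 and 80.8 for H3c1, 155 and 121 for H3c11, 96.6 and 53.9 for H3c3 and 466 and 331 for H3c6. The H2A sum was 2219.7 against 1921 and the H3 sum 1836 against 1475. In mimic 5, H4c6 was 17.2 against 9.09. Only H3c3 stood apart in both groups.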

How the results depend on the processing

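No histone gene passed the threshold under any setting run for the group difference or for either slope. The median log2 fold change of the histone genes stayed negative, from -0.161 (edgeR and DESeq2) to -0.109 (library weights) with all 12 libraries, and from -0.177 to -0.0762 with 1 library left out. Over all genes the count called between groups was 0 in limma and edgeR and 10 in DESeq2 (adjusted p not available for 2866 genes, 16 of them histone genes), and 0 whichever library was left out. The count with a slope on Mki67, 1, became 0 with the replicate block, 0 without the group term, 0 without vehicle 3 and mimic 2 together (chosen after seeing the data), and 0 to 2 with 1 library left out. The count for Top2a, 0, became 26 with the replicate block and stayed 0 in the other settings. The median histone slope on Mki67 moved from 0.73 to 0.003 without the group term, 0.13 without vehicle 3 and -0.27 without both. The cause was not tested.

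Signs turned for H2ac25, whose log2 fold change ran from -0.0115 (without vehicle 2) to 0.0901 (without vehicle 4) as single libraries were left out and was -0.0066 without mimic 2. They also turned for H3c6, from -0.181 (without mimic 2) to 0.0297 (without vehicle 3), and for Hbb-bs, from -0.429 (without vehicle 2) to 0.0402 (without vehicle 3), with 0.0655 without vehicle 3 and mimic 2. None of these was called. Replicate numbers did not pair the glands: the correlation of same-numbered deviations was -0.179 to 0.140, over 0.1 in 1 of 6 pairs, and 1 vehicle gland was most like its own number. With the replicate block the median log2 fold change of the histone genes was -0.13 and 0 genes were called. Precision was lowest for the 8 histone genes whose 95% interval reached beyond 2-fold, and for the 14 with under 20% unique sequence the split of reads is uncertain.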
